A study of Homo sapiens with 12 samples.

Results

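KLF2, KLF3, KLF4, KLF6, KLF7, KLF9, KLF10, KLF11, KLF12 and KLF13 are 10 Krüppel-like factor genes, relatives of KLF5, the transcription factor on which the study centres. They were taken by name from 19974 protein-coding genes on chromosomes 1 to 22 and X. For each gene, the ChIP-seq summits within 50 kb of either annotated end were collected, and those within 1 kb of an end were taken as summits at a gene end. The cells were Huh7, an established human hepatocellular carcinoma line, kept for 48 h at 15 µM or 0 µM choline. Both doses were set up in choline-free medium in which the B-27 supplement replaced serum, and choline chloride was then added back. The groups used were H3K27ac at 15 µM, H3K27ac at 0 µM, H3K4me1 at 15 µM and H3K4me1 at 0 µM, all labelled wild type and with 1 library each. Every difference is therefore between 2 libraries of a single cell line, with no replicate check and no test. The other 8 of the 12 samples, which are RNA-seq, input and KLF5 CUT&Tag samples, were not analysed here.

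KLF proteins bind GC-rich and CACCC sequences through zinc fingers at their C-terminal end, and differ mainly in the N-terminal part that recruits coactivators or corepressors. KLF3 and KLF12 recruit the corepressor CtBP. KLF9, KLF10, KLF11 and KLF13 recruit the corepressor SIN3A, and KLF2, KLF4, KLF6 and KLF7 act largely as activators. Acetylation of H3 lysine 27 (H3K27ac) is found at promoters and enhancers in use, and single methylation of H3 lysine 4 (H3K4me1) at enhancers in use or poised. In liver, KLF6 is known as an early-response gene of injured cells and as a growth suppressor, KLF9 as a target of glucocorticoid and thyroid hormone, and KLF10 and KLF11 as genes induced early by TGF-beta.

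The H3K27ac lists held 29305 summits at 15 µM and 37946 at 0 µM, and the H3K4me1 lists 349202 and 343156 in the same order. Counts at 0 µM were therefore scaled by the ratio of list lengths, 0.772 for H3K27ac and 1.02 for H3K4me1, before a difference was taken. Read depth is unknown. The score of a summit is the authors' own, a −log10 of a p- or q-value, and ranks were taken only within a list. Where a fixed score limit is applied to both lists of a mark, the counts also depend on how the scores of each list are scaled. ALB and AFP, which mark hepatocytes and their fetal or malignant forms, had 44 and 42 H3K27ac summits at 15 µM, against 24 and 18 at 0 µM. These are genes that mark the labelled cell type, and H3K27ac summits were listed around both. A summit within reach of both genes counts for each. The windows of the 10 genes did not overlap each other, and 6 of them held no end of another protein-coding gene. The other 4 windows held ends of EPS15L1 (beside KLF2), SMC5 (beside KLF9), GRHL1 and CYS1 (beside KLF11) and OTUD7A (beside KLF13).

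Promoter sequences were compared first, because several H3K27ac summits of these genes lay beside starts that are not ends of the gene. RefSeq (GRCh38.p14) listed 15 starts for 8 of the genes, each with 250 bases before and 50 after the start. KLF3 and KLF10 had no entry. The stretches below belong to the starts of KLF6, KLF7, KLF9 and KLF12 that had an H3K27ac summit within 1 kb (for KLF7, 1 of several such starts), together with that of KLF4, which had no such summit in its window. They run 5′ to 3′ on the gene's strand, and capitals mark GGGCGG (the GC box) and GGGTGG (the CACCC box), each on either strand with overlapping matches counted separately.
KLF6 (chr10:3785160-3785459, minus strand): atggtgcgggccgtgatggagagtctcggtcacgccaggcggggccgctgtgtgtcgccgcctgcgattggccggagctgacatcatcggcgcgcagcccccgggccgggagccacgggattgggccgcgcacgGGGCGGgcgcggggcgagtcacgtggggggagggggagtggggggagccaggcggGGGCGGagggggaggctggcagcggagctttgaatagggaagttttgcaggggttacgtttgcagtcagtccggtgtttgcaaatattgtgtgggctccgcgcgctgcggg
KLF9 (chr9:70414608-70414907, minus strand): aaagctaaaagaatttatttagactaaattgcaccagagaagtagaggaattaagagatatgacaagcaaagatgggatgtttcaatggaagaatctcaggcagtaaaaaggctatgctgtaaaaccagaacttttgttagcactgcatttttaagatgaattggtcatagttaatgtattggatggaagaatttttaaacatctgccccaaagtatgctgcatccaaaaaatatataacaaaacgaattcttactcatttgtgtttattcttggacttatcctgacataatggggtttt
KLF7, start at 207166856 (chr2:207166807-207167106, minus strand): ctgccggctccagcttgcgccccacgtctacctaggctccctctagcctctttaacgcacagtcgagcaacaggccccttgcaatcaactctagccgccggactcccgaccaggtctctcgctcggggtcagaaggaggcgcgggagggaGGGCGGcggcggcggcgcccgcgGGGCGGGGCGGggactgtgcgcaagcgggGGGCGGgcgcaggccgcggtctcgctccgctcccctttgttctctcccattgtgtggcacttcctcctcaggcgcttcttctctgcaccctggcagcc
KLF12, start at 74133929 (chr13:74133880-74134179, minus strand): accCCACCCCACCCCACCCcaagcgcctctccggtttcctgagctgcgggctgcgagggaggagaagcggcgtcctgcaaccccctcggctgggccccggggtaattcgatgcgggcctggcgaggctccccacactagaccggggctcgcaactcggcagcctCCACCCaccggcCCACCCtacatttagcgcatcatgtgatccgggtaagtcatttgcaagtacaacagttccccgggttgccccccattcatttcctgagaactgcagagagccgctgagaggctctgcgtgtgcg
KLF12, start at 74134404 (chr13:74134355-74134654, minus strand): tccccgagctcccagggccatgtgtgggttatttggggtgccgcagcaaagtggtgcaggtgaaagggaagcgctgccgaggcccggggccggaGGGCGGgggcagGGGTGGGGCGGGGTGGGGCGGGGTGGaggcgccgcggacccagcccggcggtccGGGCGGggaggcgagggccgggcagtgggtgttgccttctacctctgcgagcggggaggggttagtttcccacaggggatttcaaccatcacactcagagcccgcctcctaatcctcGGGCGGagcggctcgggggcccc
KLF4 (chr9:107489720-107490019, minus strand): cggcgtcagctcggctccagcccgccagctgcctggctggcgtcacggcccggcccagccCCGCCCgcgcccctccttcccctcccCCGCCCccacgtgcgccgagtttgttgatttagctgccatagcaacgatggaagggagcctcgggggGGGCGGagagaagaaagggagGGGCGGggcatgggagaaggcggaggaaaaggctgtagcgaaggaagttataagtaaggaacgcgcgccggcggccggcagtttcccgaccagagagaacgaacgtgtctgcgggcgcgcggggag

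GC boxes were present in 8 of the 15 stretches (53.3%), against 45% of 35116 promoters of all listed genes, protein-coding or not. CACCC boxes were in 4 of them (26.7%), against 34.3%. Some genes have several stretches. Counted by gene, 7 of 8 had a GC box, against 13189 of 27305 genes. By the same count, 3 of 8 had a CACCC box, against 10364 of 27305. These 27305 genes are a wider set than the 15812 protein-coding genes with a listed start. KLF7 and KLF12 had 4 stretches each, and a gene with more stretches can hold a box more easily. The counts by gene are therefore not a like comparison. The KLF12 start at 74134404 had 5 GC boxes and 3 CACCC boxes, and that at 74133929 had 5 CACCC boxes and no GC box. KLF4 had 4 GC boxes and no H3K27ac summit, and the stretch of KLF7 also had 4, with the single 15 µM summit of that gene inside it. KLF9 had neither box, with a GC content of 32.7% against a median of 58.7% over all promoters. A promoter rich in these letters thus occurred both with and without H3K27ac nearby. KLF11, whose starts had 2 and 7 GC boxes, and KLF2, with 6, had no H3K27ac summit within 1 kb of a start at either dose.

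Within 50 kb of gene ends, KLF6 and KLF3 had the most H3K27ac summits of the 10 genes. KLF12, a much longer gene, had 12 further summits at each dose beyond these windows, which are described with that gene. In all, the 10 windows held 28 summits at 15 µM, against 31 at 0 µM. Outside these 2 genes they held 7 and 15. KLF4 and KLF11 had none at either dose, and the remaining 6 genes had 0 to 2 summits at 15 µM and 0 to 5 at 0 µM. Thus 8 of 10 windows held a summit at some dose, against 67.2% of all protein-coding genes. After scaling, the 10 windows together had 1.17 times as many summits at 15 µM as at 0 µM. The exact 95% interval of that ratio, which covers counting error only and treats summits as independent, was 0.676 to 2.02 and included 1. The direction rested on KLF6. Without this gene, an alternative chosen after the data were seen, the ratio was 0.863 (interval 0.429 to 1.69), from 16 summits at 15 µM and 24 at 0 µM. The median scaled difference was -0.55 summits over the 8 windows with a summit, against -0.634 over all genes with one. The difference was above 0 in 3 of the 8 and below 0 in 5, where 36.4% and 63.6% of all such windows lay. Before scaling, 5 of the 8 held fewer summits at 15 µM, as did 69.6% of all such windows. Fewer cells with a mark and less of it per cell cannot be told apart in these data.

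**Figure D1:**
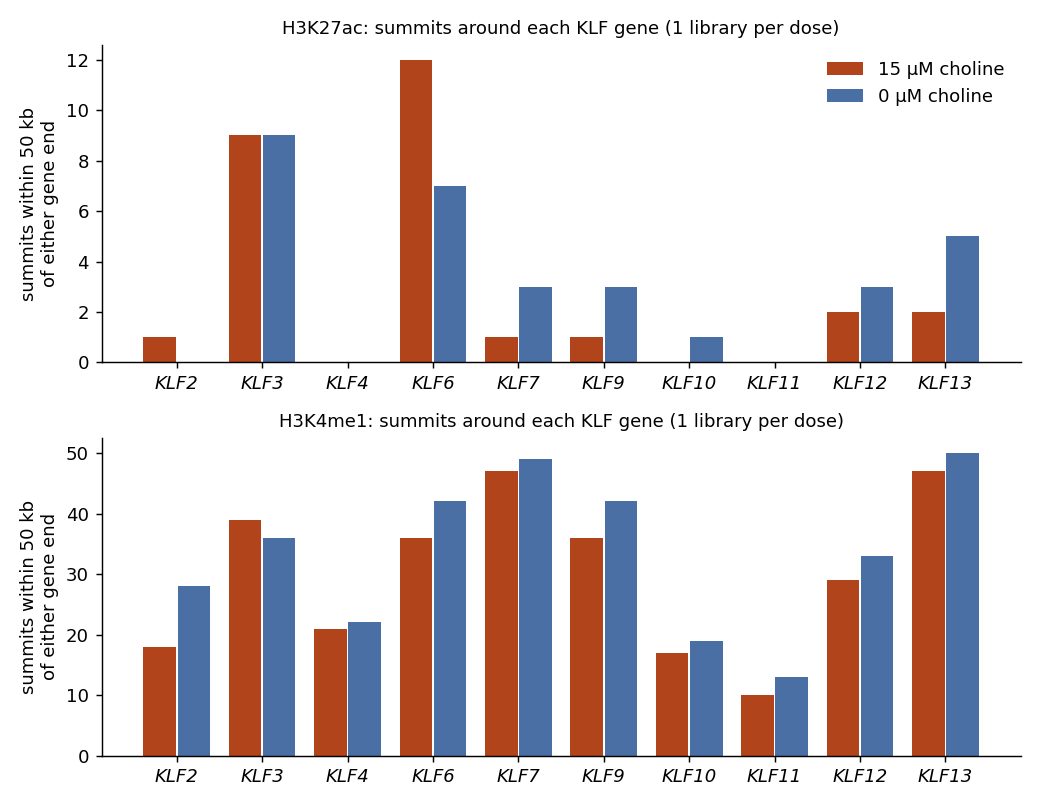
Number of H3K27ac summits (top) and H3K4me1 summits (bottom) within 50 kb of either end of each gene, at 15 µM choline (red) and 0 µM choline (blue), with 1 library per bar and so no error bar. KLF3 and KLF6 stand out for H3K27ac with 9 and 12 summits at 15 µM, whereas every gene has at least 10 H3K4me1 summits.

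A window was called higher or lower when the counts differed by 1.5-fold and by 2 summits after scaling, among windows with 3 or more summits at a dose. Of the 6 windows that could be called, 1 was higher at 15 µM, that of KLF6, and 0 were lower. Over all genes, 11.5% of such windows were higher and 25.5% lower. Gene ends gave a similarly small set. KLF3 and KLF6 had an H3K27ac summit within 1 kb of an end at 15 µM, and KLF3, KLF6 and KLF9 had one at 0 µM, which is 2 and 3 of 10 genes against 16.2% and 28.3% of all genes. KLF9 was the 1 gene of these 3 whose end had no 15 µM summit within 2 kb, a state met by 43.9% of all genes with an end summit at 0 µM. Of the 2 genes with an end summit at 15 µM, none had gained it, against 10.5% of all genes with one at 15 µM.

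The CtBP-binding repressors were KLF3, known from fat and red cell development, and KLF12, first known as a repressor of the AP-2alpha gene. KLF3 (chromosome 4, 38664199 to 38701517, hg38) had 9 H3K27ac summits at 15 µM, against 9 at 0 µM. Inside the gene lay 5 of them at 15 µM and 6 at 0 µM, all within 15 kb of the lower-coordinate end. A second group lay 41 to 43.5 kb outside that end, with 3 summits at 15 µM and 2 at 0 µM. Both lists held these groups, and 5 of 9 summits of each list had a partner within 500 bp in the other. The closest pair, at 38670929 and 38670981, was 52 bp apart. At 15 µM, the summit nearest to that end lay 849 bp outside the gene, at 38663350. At 0 µM, the nearest lay 180 bp inside the gene, at 38664379 with a score of 9.02, and was 1029 bp from any 15 µM summit.

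KLF12 (chromosome 13, 73686089 to 74306045, hg38) spans 620 kb, so windows at its ends miss most of it. The windows held 2 H3K27ac summits at 15 µM, against 3 at 0 µM, a scaled difference of -0.32. The whole gene with 50 kb on each side held 14 and 15, a scaled difference of 2.42, so the sign for KLF12 depended on the stretch counted. Of these, 12 at each dose lay inside the gene and beyond reach of the end windows. The highest-scoring one was in the same place at both doses, at 74228140 at 15 µM (score 42.5), against 74228129 at 0 µM (score 65.7). It scored above 99.1% of its list at 15 µM and above 98.9% at 0 µM. It lay 77.9 kb inside the gene from its listed first start. A second shared site, at 74134246 and 74134224, was 22 bp apart between the doses and lay 158 and 180 bp from the listed start at 74134404, whose sequence with its GC and CACCC boxes is given above. The start at the end of the gene had its nearest H3K27ac summit 77.5 kb away at 15 µM and 17.7 kb away at 0 µM. Over the whole gene, 8 of 14 summits at 15 µM and 7 of 15 at 0 µM had a partner within 500 bp. H3K27ac at KLF12 was thus placed on an internal start and on a site far inside the gene at both doses.

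**Figure D2:**
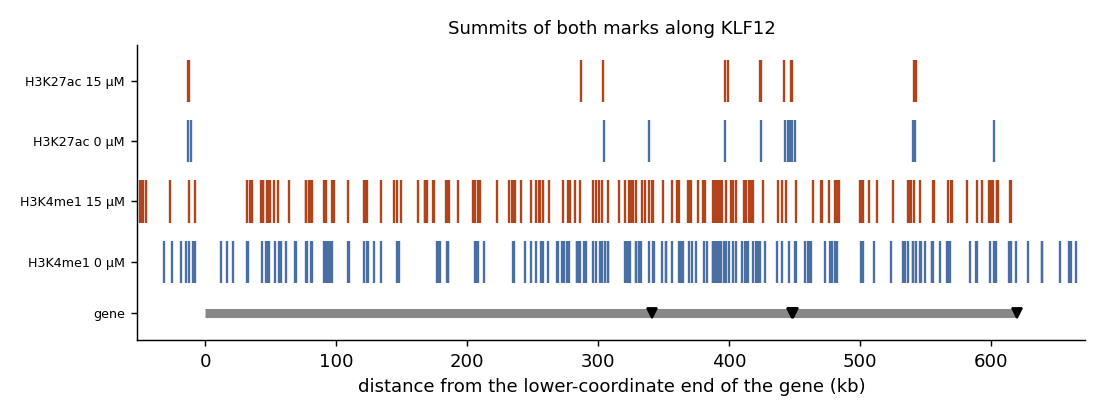
Summits along KLF12 and 50 kb on each side, by distance from the lower-coordinate end of the gene in kb; each vertical line is 1 summit, at 15 µM (red) and 0 µM (blue), the grey bar is the gene, and triangles are RefSeq starts. H3K27ac summits gather at the internal pair of starts and at a site 77.9 kb from the end start in both lists, while H3K4me1 summits are spread over the gene.

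Among the activators, KLF6 (chromosome 10, 3775996 to 3785209, hg38) had the most H3K27ac summits, 12 at 15 µM and 7 at 0 µM, a scaled difference of 6.59. The share of its summits that came from the 15 µM list was 63.2%, with an exact interval of 38.4 to 83.7%, which includes the 43.6% that this list makes up of both lists. The larger count was found in each of 3 distance bands. Within 15 kb of a gene end, KLF6 had 4 summits at 15 µM and 2 at 0 µM, between 15 and 35 kb 3 and 1, and between 35 and 50 kb 5 and 4. Counted as bins of 5 kb that hold a summit, which do not increase when a broad site is split, KLF6 had 7 at 15 µM and 4 at 0 µM. Of the 12 summits at 15 µM, 5 had a 0 µM summit within 500 bp, whereas 6 of the 7 at 0 µM had a 15 µM one. The sites of the 0 µM list were thus mostly still listed at 15 µM, with further ones beside them.

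The KLF6 start is at 3785209 on the minus strand, and its nearest H3K27ac summit lay outside the gene at both doses, 871 bp away at 15 µM and 774 bp away at 0 µM. These scored 9.01 at 15 µM and 21.5 at 0 µM, above 34.8% and 85.2% of their lists. The highest-scoring KLF6 summits also shared a place, 25.3 kb outside the gene at 3810541 at 15 µM (score 15.9) and 25.4 kb outside at 3810579 at 0 µM (score 42.2). Scores of different lists are not on a common scale. When summits with a score under 10 were left out, KLF6 had 4 at 15 µM, against 3 at 0 µM, a scaled difference of 1.82 that no longer met the call.

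KLF7 (chromosome 2, 207074137 to 207173851, hg38), known from the development of neurons, had 1 H3K27ac summit at 15 µM and 3 at 0 µM. Neither annotated end of KLF7 had one. The 15 µM summit, at 207167083, lay 163 bp from the listed start at 207167246. It lay inside the stretch printed above for the start at 207166856. The 0 µM summits, at 207163938, 207165354 and 207166419, lay 664 bp or more from it and 437 bp to 2.01 kb from the nearest listed start. KLF7 thus carried H3K27ac at an internal start at both doses, at positions that did not meet the 500 bp limit for a shared summit.

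KLF2 (chromosome 19, 16324826 to 16328685, hg38), which endothelial cells induce under flow, had 1 H3K27ac summit at 15 µM and 0 at 0 µM. This summit, at 16315928 with a score of 11.9, lay 8.9 kb before the start. KLF4 (chromosome 9, 107484852 to 107489769, hg38), a reprogramming and epithelial differentiation factor, had 0 at both doses. The nearest H3K27ac summit to its start was 204937 bp away at 15 µM and 180989 bp away at 0 µM. The 4 activators together had 14 H3K27ac summits at 15 µM, against 10 at 0 µM, most of them at KLF6.

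**Figure D3:**
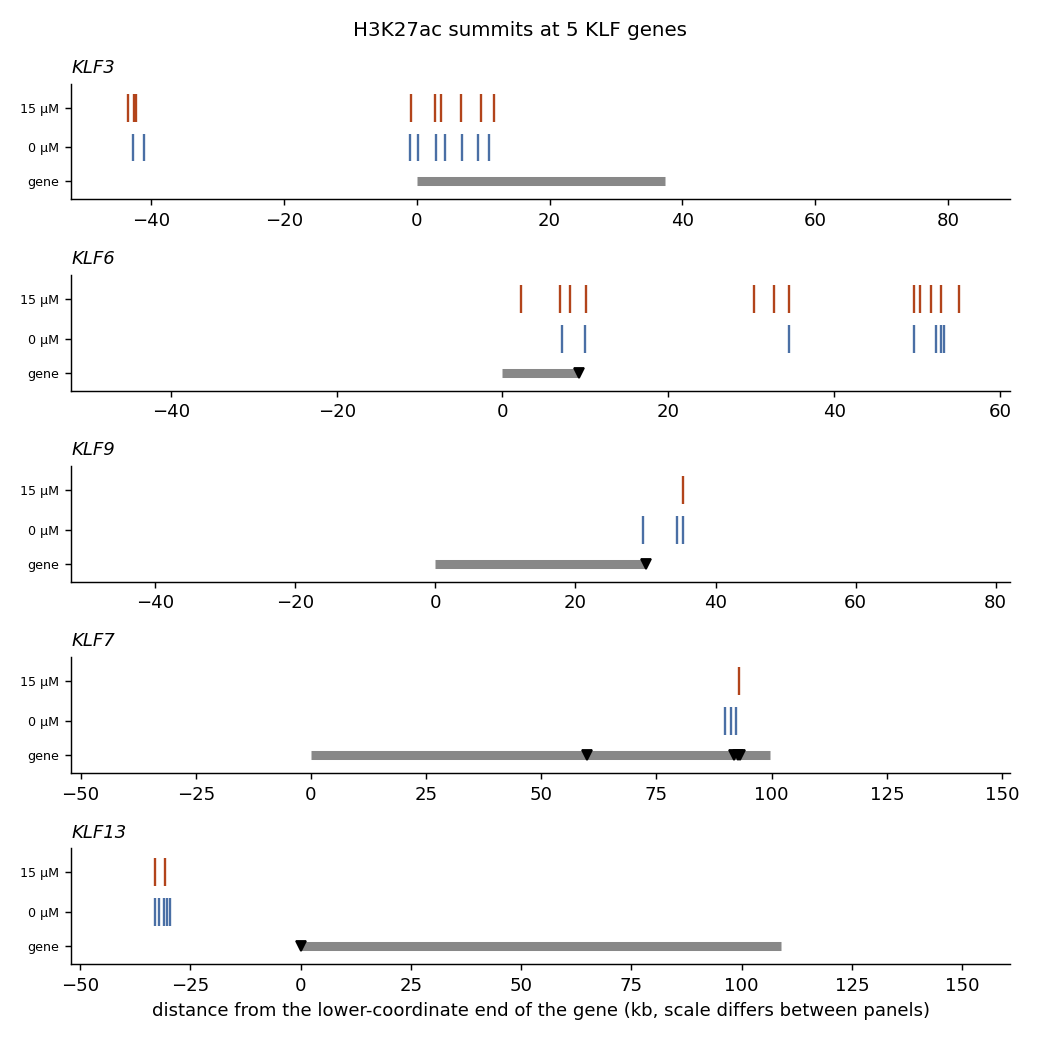
H3K27ac summits at KLF3, KLF6, KLF9, KLF7 and KLF13 by distance from the lower-coordinate end of each gene in kb; each vertical line is 1 summit, in the 15 µM row (red) above the 0 µM row (blue), grey bars are genes and triangles are RefSeq starts (none was listed for KLF3). The 15 µM row has more summits at KLF6 (12 against 7) and fewer at KLF9 (1 against 3), KLF7 (1 against 3) and KLF13 (2 against 5).

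The SIN3A-binding repressors together had 3 H3K27ac summits at 15 µM over 4 genes, against 9 at 0 µM, a summed scaled difference of -3.95. Most of these summits were those of KLF13 at each dose. Of all windows with a summit, 63.6% lay below the scaled 0 µM count. KLF9 and KLF13 were not called lower, and KLF10 and KLF11 had too few summits for a call. At KLF9 (chromosome 9, 70384604 to 70414657, hg38) there was 1 summit at 15 µM and there were 3 at 0 µM. The 15 µM summit, at 70419942, and the highest-scoring 0 µM one, at 70419975, were 33 bp apart, 5.29 and 5.32 kb before the start. Of the 3 summits at 0 µM, the other two had no 15 µM summit within 500 bp. The one at 70419108 (score 7.41) was 834 bp from a 15 µM summit, and the one at the start was 5680 bp from any. That start summit was at 70414262, 395 bp inside the gene, with a score of 17.1, which is above 77.1% of the 0 µM list. At 15 µM the nearest H3K27ac summit to the KLF9 start was the one 5285 bp before it. KLF9 thus kept a summit upstream and had none at its start at 15 µM.

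KLF13 (chromosome 15, 31326835 to 31435665, hg38), known as an activator of chemokine expression in T cells, had 2 H3K27ac summits at 15 µM, against 5 at 0 µM. All 7 lay 29.5 to 33.1 kb before the gene, and none lay within it. The pair at 31293703 and 31293708 was 5 bp apart, the smallest distance between the doses among the H3K27ac summits of these genes. Both lists occupied 2 bins of 5 kb there, so the counts differed within a single stretch. KLF10 (chromosome 8, 102648784 to 102655725, hg38) had 0 summits at 15 µM and 1 at 0 µM, 2.17 kb inside the gene with a score of 8.55. KLF11 (chromosome 2, 10043550 to 10054836, hg38) had none, and the nearest summit to its starts was 77036 bp away at 15 µM and 76863 bp away at 0 µM. For each of these 4 genes that had summits, the exact interval of the 15 µM share included the 43.6% of the whole list. With 4 summits at KLF9 and 1 at KLF10 over both doses, any split would have given such an interval. For KLF9 and KLF10 the interval therefore says nothing about a difference.

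When listed starts were taken in place of gene ends, an approach chosen after the data were seen, 8 of the 10 genes could be read. KLF6, KLF7 and KLF12 had an H3K27ac summit within 1 kb of a start at 15 µM, and these 3 and KLF9 had one at 0 µM. Over the 15812 genes with a listed start, the shares were 17.4% and 30.6%. KLF7 and KLF12 had 4 listed starts each, and a gene with more starts can meet this rule more easily. KLF9 was again the 1 gene without a 15 µM summit within 2 kb, as were 43.8% of the 4833 genes with a start summit at 0 µM. Of the 3 genes with a start summit at 15 µM, none had gained it, against 9.59% of all genes with one at 15 µM. KLF7 and KLF12 therefore counted as without an end summit only because their acetylated starts are internal.

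H3K4me1 was present at all 10 genes, as it was in 99.1% of windows of all genes. The windows held 300 summits at 15 µM and 334 at 0 µM. KLF7 and KLF13 had the most at 15 µM, 47 each, against 49 and 50 at 0 µM, and KLF11 the fewest with 10 and 13. Because windows differ in length, levels are better compared per 100 kb. On that scale KLF6 led with 33 summits at 15 µM and 38.5 at 0 µM, and KLF11 had 8.99 and 11.7. KLF4, with no H3K27ac summit, had 20 at 15 µM and 21 at 0 µM, and KLF3 had 28.4 and 26.2. Genes without H3K27ac were thus not without H3K4me1.

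The H3K4me1 count was smaller at 15 µM in 9 of 10 windows, both before and after scaling. KLF3 was the exception with 39 summits at 15 µM and 36 at 0 µM. Over all genes, 50.7% of windows lay below the scaled 0 µM count and 41.9% held fewer summits before scaling. The median scaled difference was -3.55 summits over the 10 genes and -0.035 over all genes with a summit. The scaled ratio of the 10 windows together was 0.883, with an exact interval of 0.753 to 1.03 that included 1. For each of the 10 genes, the interval of the 15 µM share held the 50.4% of the whole list. The count of genes in each direction moved with the score limit, and the direction of the sum did not. Among summits with a score of at least 5, 5 genes lay above the scaled count and 5 below, with 90 summits at 15 µM, against 113 at 0 µM, a scaled ratio of 0.831.

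KLF2 had the largest difference of the 10 windows, with 18 H3K4me1 summits at 15 µM, against 28 at 0 µM, a scaled difference of -10.49, and it was the 1 window called lower of 10, where 7.76% of all windows were. No window was called higher, against 9.24%. With a score of at least 5, KLF2 had 6 summits at 15 µM and 3 at 0 µM, the opposite direction. The strongest KLF2 sites were shared. One lay 9.86 kb outside the gene at 16314967 at 15 µM and 9.67 kb outside at 16315160 at 0 µM, and the 15 µM site was 961 bp from the H3K27ac summit that was listed at 15 µM alone. The H3K4me1 site was thus listed at both doses and the H3K27ac one at 15 µM.

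Other genes differed in a similarly uneven way. KLF13 had 7 H3K4me1 summits with a score of at least 5 at 15 µM, against 20 at 0 µM, and KLF3 had 7 and 14, whereas KLF7 had 20 at both. At KLF13 the highest-scoring H3K4me1 summit at 15 µM, at 31293605 with a score of 29.7, was 98 bp from an H3K27ac summit, and that at 0 µM, at 31294206 with a score of 18.4, was 498 bp from one. This is the stretch about 30 kb before the gene that held all its H3K27ac. The highest-scoring H3K4me1 summit of KLF12 at 15 µM, at 73673352 with a score of 48.5, was likewise 192 bp from an H3K27ac summit. At KLF4 the strongest H3K4me1 summits lay before the start, 13.7 kb away at 107503469 at 15 µM and 14.8 kb away at 107504608 at 0 µM, with no H3K27ac in the window. Within 20 kb of its ends, KLF7 had 24 H3K4me1 summits at 15 µM, against 15 at 0 µM, against 47 and 49 within 50 kb.

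**Figure D4:**
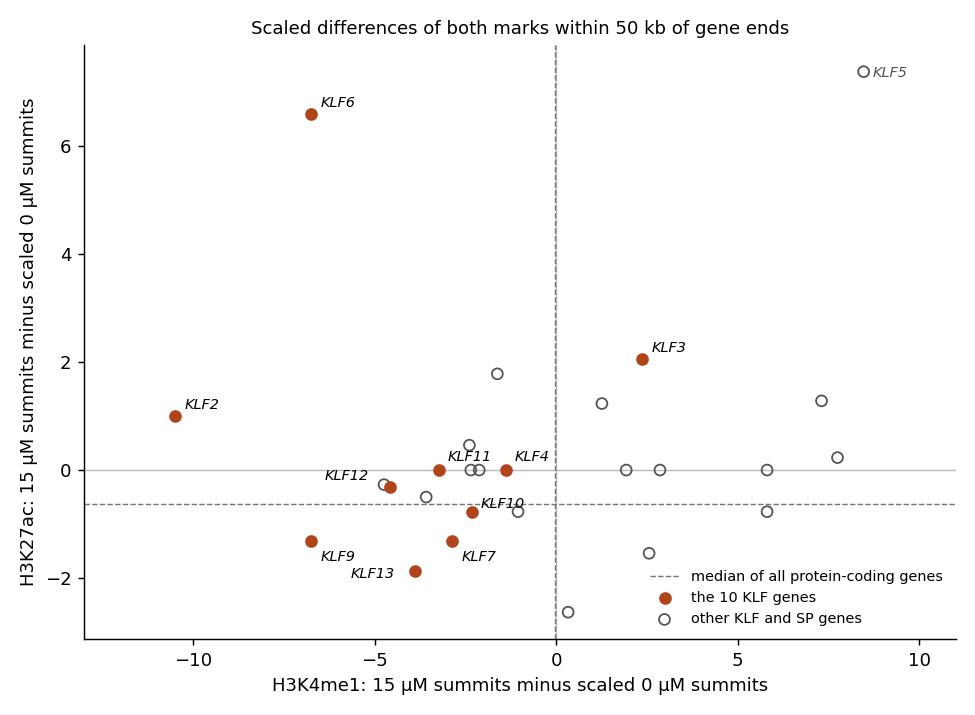
Scaled difference in H3K27ac summits (vertical axis, 15 µM minus scaled 0 µM) against that in H3K4me1 summits (horizontal axis) within 50 kb of gene ends, for the 10 KLF genes (red) and the 17 other KLF and SP genes (open circles); dashed lines are the medians of all protein-coding genes with a summit of that mark. KLF6 lies high for H3K27ac at 6.59 and low for H3K4me1 at -6.74, and KLF3 is the 1 red point right of 0.

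Summit positions were compared over the 10 windows. Of the H3K27ac summits, 14 of 28 at 15 µM (50%, exact 95% interval 30.6 to 69.4) and 16 of 31 at 0 µM (51.6%, 33.1 to 69.8) had a partner within 500 bp at the other dose, against 50.7% and 38.7% of the whole lists. Of the H3K4me1 summits, 155 of 300 at 15 µM (51.7%, 45.9 to 57.4) and 154 of 334 at 0 µM (46.1%, 40.7 to 51.6) did, against 43.5% and 44.5%. Summits of the same gene share their surroundings, so these intervals are too narrow. The 15 µM share of H3K4me1 lay above that of the whole list, and the other 3 intervals held the whole-list value. An H3K4me1 summit of the same dose lay within 1 kb of 16 of 28 H3K27ac summits at 15 µM (57.1%, 37.2 to 75.5) and of 17 of 31 at 0 µM (54.8%, 36 to 72.7). The whole lists had 58.5% and 65.2%. At KLF6, this was so for 4 of 12 H3K27ac summits at 15 µM and 2 of 7 at 0 µM, and at KLF3 for 6 of 9 and 5 of 9.

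KLF5 itself had 12 H3K27ac summits at 15 µM, against 6 at 0 µM, and 39 and 30 H3K4me1 summits. KLF6 had the same H3K27ac count as KLF5 at 15 µM, but the sign of its H3K4me1 difference was opposite, at -6.74 against 8.47. The 17 other KLF and SP genes, KLF5 included, had 63 H3K27ac summits at 15 µM, against 74 at 0 µM, some in overlapping windows. Of the 6 windows that could be called, that of KLF5 was higher and that of KLF16 lower, with 2 summits at 15 µM and 6 at 0 µM. Over all genes, 11.5% of such windows were higher and 25.5% lower. KLF16, another SIN3A-binding member, has 5 neighbouring genes with an end in its window. For H3K4me1 the 17 genes had 417 summits at 15 µM and 384 at 0 µM, with 10 above and 7 below the scaled count. Of their windows 3 were called higher for H3K4me1 and 0 lower, against 9.24% and 7.76% of all windows. The 3 were those of KLF17, SP2 and SP6. SP2 and SP6 are neighbours on chromosome 17 with overlapping windows, each with 17 H3K4me1 summits at 15 µM and 11 at 0 µM. Their calls, and their places among the 10 genes above the scaled count, are therefore not independent. Of 10 cofactor genes of KLF proteins, 3 had an H3K27ac end summit at 15 µM and 6 at 0 µM, against 16.2% and 28.3% of all genes. The ends of 2 of these 6 were without a 15 µM summit within 2 kb, against 43.9% of all genes with an end summit at 0 µM. For H3K4me1, 0 cofactor windows were called higher and 2 lower. Of the 7 cofactor windows that could be called for H3K27ac, 0 were higher and 1 was lower, against 11.5% and 25.5% of all such windows. The 1 called lower was that of CTBP1, a corepressor of KLF3 and KLF12, with 0 H3K27ac summits at 15 µM, against 4 at 0 µM. The CTBP1 end summit was absent at 15 µM. HDAC2, a histone deacetylase of the SIN3A complex, also had its end summit at 0 µM only, with 0 summits at 15 µM and 2 at 0 µM.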

How the data were processed

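The 4 ChIP-seq summit lists were used (H3K27ac and H3K4me1 at 15 and 0 µM choline, 1 library each), with groups taken from the labels. Each list that the authors deposited is laid out as MACS2 writes summits, with a score read as the −log10 of a p- or q-value. Peak-calling settings, and the kind of score, are not given in the sources used here. Per the submitters' processing notes, MACS2, Bowtie, Picard and deepTools were used with hg38. The lowest scores were 5.01 in both H3K27ac lists and 1.3 and 1.31 in the H3K4me1 lists at 15 and 0 µM, so counts were not compared between marks. A longer list can come from depth as well as from chromatin.

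Positions were written 1-based, for chromosomes 1 to 22 and X. Gene positions, strands and promoter sequences came from RefSeq tables of GRCh38.p14, which match hg38; exons and UTRs were not used. All 10 genes matched by symbol. Counts ran over all 19974 protein-coding genes, and the 15 µM count minus the scaled 0 µM count is the scaled difference. Every one of the 10 genes was to be described, and from the lists of other KLF and SP genes and of cofactors those with a called H3K27ac window or a changed H3K27ac end. The members and lists were chosen with earlier results of these data known. Exact Clopper-Pearson 95% intervals cover counting error only. The planned comparison of protein sequences was not run. Code ran in Python 3.11.15 with numpy 2.4.6, pandas 2.3.3, scipy 1.17.1 and matplotlib 3.10.9, and was tested on simulated data. Alternatives covered windows, score limits, list lengths, matching distances and bins.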

Additional observations from a re-analysis of the deposited data

How the results depend on the processing

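No paired analysis was possible because each mark and dose has 1 library, and no library could be left out. Of 79 alternatives to the results over all 10 genes, 58 stayed within the interval of the reported value or within 1.5 times the count, and 21 did not. Without KLF3 and KLF6, chosen after seeing the data, the scaled H3K27ac ratio was 0.604, from 7 summits at 15 µM and 15 at 0 µM. H3K27ac windows called higher numbered 2 at 100 kb (KLF6 and KLF12) and 0 with the stricter score limit (at least 10 for H3K27ac and 5 for H3K4me1), and those called lower 1 at 100 kb (KLF9) and 1 at equal list lengths (KLF13). H3K4me1 windows called higher numbered 1 at 20 kb (KLF7) and 1 with the stricter limit (KLF2). Those called lower numbered 1 at 20 kb, KLF12 in place of KLF2, 0 at 100 kb, 2 with the stricter limit (KLF3 and KLF13) and 0 at a 2-fold call. The KLF2 difference turned to 3.12 with the stricter limit. End summits at 15 µM numbered 0 within 500 bp and 0 with the stricter limit, where 2 ends were lost, those of KLF6 and KLF9. The KLF9 end was lost under each of the 6 alternatives to the gene-end rule, listed starts (chosen after seeing the data) included. Apart from listed starts, shares over all genes were counted for the main settings only. The calls and end counts under the alternatives thus have no such share beside them, and whether they are unusual cannot be read. Shared H3K27ac summits were 82.1% within 1 kb at 15 µM and 32.3% within 200 bp at 0 µM. Shared H3K4me1 summits at 15 µM were 26.7% within 200 bp and 69.3% within 1 kb, and at 0 µM 24% and 63.5%. H3K27ac summits with H3K4me1 at 0 µM were 22.6% within 500 bp and 83.9% within 2 kb. The lists hold no replicate and their depth is unknown, so small counts such as those of KLF9 and KLF7 are not distinguishable from counting error. The cause of these changes was not tested. Among 100 alternatives for single genes, 87 were counted as unchanged. A gene with a call had to keep it. A gene without a call had to stay within the square root of its count of the reported difference, whether or not it gained a call. KLF9 for H3K27ac at 100 kb is a case that counted as unchanged and gained a call.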
